A study of Homo sapiens with 8 samples.

Results

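Vehicle-treated cells of the prostate epithelial line BPH-1 were compared with vehicle-treated cells of the prostate stromal line WPMY-1. These 4 arrays were chosen by their labels from the 8 arrays of the series. All 22465 genes that 1 or more transcript clusters of the array read under 1 symbol were described, out of 67528 clusters in all. BPH-1 is a human epithelial line that was raised from a hyperplastic prostate, and WPMY-1 a human myofibroblast line from prostate stroma. Both were immortalized with the large T antigen of SV40, and each group is a single line, so a difference between them is a difference between these 2 lines and not between 2 cell types as such. The BPH-1 group had 2 arrays of cells kept with vehicle for 24 h in RPMI1640 with serum, and the WPMY-1 group had 2 arrays of cells kept with vehicle for 24 h in DMEM with serum. Line and medium cannot be told apart. The other 4 arrays of the series held the same lines after 24 h with 250 μg/ml of an extract of Rauwolfia vomitoria (RWF), and they served as a second measurement of the line difference. Whether the 2 arrays of a group came from separate cultures is not in the labels, so the spread behind the p-values may be technical.

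The prostate is built from glands lined by epithelium and a surrounding stroma of fibroblasts and smooth muscle. Epithelial cells hold to each other through adherens junctions, tight junctions and desmosomes, carry keratin filaments and rest on a basement membrane. Stromal cells secrete fibrillar collagens and other matrix, contract, and send growth factors and chemokines to the epithelium. Transcription factors such as GRHL2 and EHF keep the epithelial programme on, while ZEB1, TWIST and SNAI2 repress it, CDH1 being the best known target.

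Each deposited value is a log2 expression value of 1 cluster on 1 array, and a difference of 1 on this scale is a fold change of 2. Differences below are BPH-1 minus WPMY-1, with a fold change on the linear scale. Values rank a gene between samples and not one gene against another, since probes differ in brightness. Detection calls were not given, and a low value can be background. Across clusters, vehicle arrays of the same line correlated at 0.995 to 0.997 and vehicle arrays of different lines at 0.971 to 0.974. Of the 67528 clusters 5955 (8.82%) were higher and 5279 (7.82%) lower in BPH-1 cells. Of the 22465 genes, 2846 (12.7%) were higher and 2813 (12.5%) lower in BPH-1 cells (limma, adjusted p under 0.05), and 170 (0.757%) were at least 4-fold higher and 166 (0.739%) at least 4-fold lower. In every one of the 5659 called genes the BPH-1 arrays lay wholly above or wholly below the WPMY-1 arrays. The calls used the same arrays, so this separation adds no support to them. Without BPH-1 replicate 2 the genes lower in BPH-1 cells numbered 1795, while the counts of 4-fold genes without each array in turn lay between 169 and 177 higher and between 154 and 187 lower. A replicate named without a treatment is a vehicle array. Over all genes the median difference was 0.02. Counts of list members below are to be read beside the 12.7% and 12.5% of all genes called in each direction. Most lists hold coding genes, of which more were called, 14.9% higher and 14.7% lower.

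The 3 epithelial marker genes were higher in BPH-1 cells, and the 3 stromal marker genes were lower. KRT5, a keratin of basal epithelium, read 10.92 and 10.97 in BPH-1 cells, against 4.96 and 5.19 in WPMY-1 cells (58.4-fold higher, adjusted p = 1.58e-07). CDH1, the cadherin of epithelial adherens junctions, read 9.70 and 9.66 in BPH-1 cells, against 4.54 and 4.44 in WPMY-1 cells. EPCAM, an epithelial adhesion molecule, read 9.38 and 9.29 in BPH-1 cells, against 4.48 and 4.52 in WPMY-1 cells. The 3 fold changes ran between 28.6 and 58.4. The chains of type I collagen were on the stromal side. COL1A1 read 6.44 and 6.54 in BPH-1 cells, against 9.93 and 9.92 in WPMY-1 cells, and COL1A2 read 5.48 and 5.51 in BPH-1 cells, against 10.04 and 9.78 in WPMY-1 cells. FN1, fibronectin, read 9.05 and 8.83 in BPH-1 cells, against 10.85 and 10.79 in WPMY-1 cells (3.69-fold lower in BPH-1 cells). Neither line overlapped the other in any of the 6, as in every called gene, so this adds no support.

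**Figure D1:**
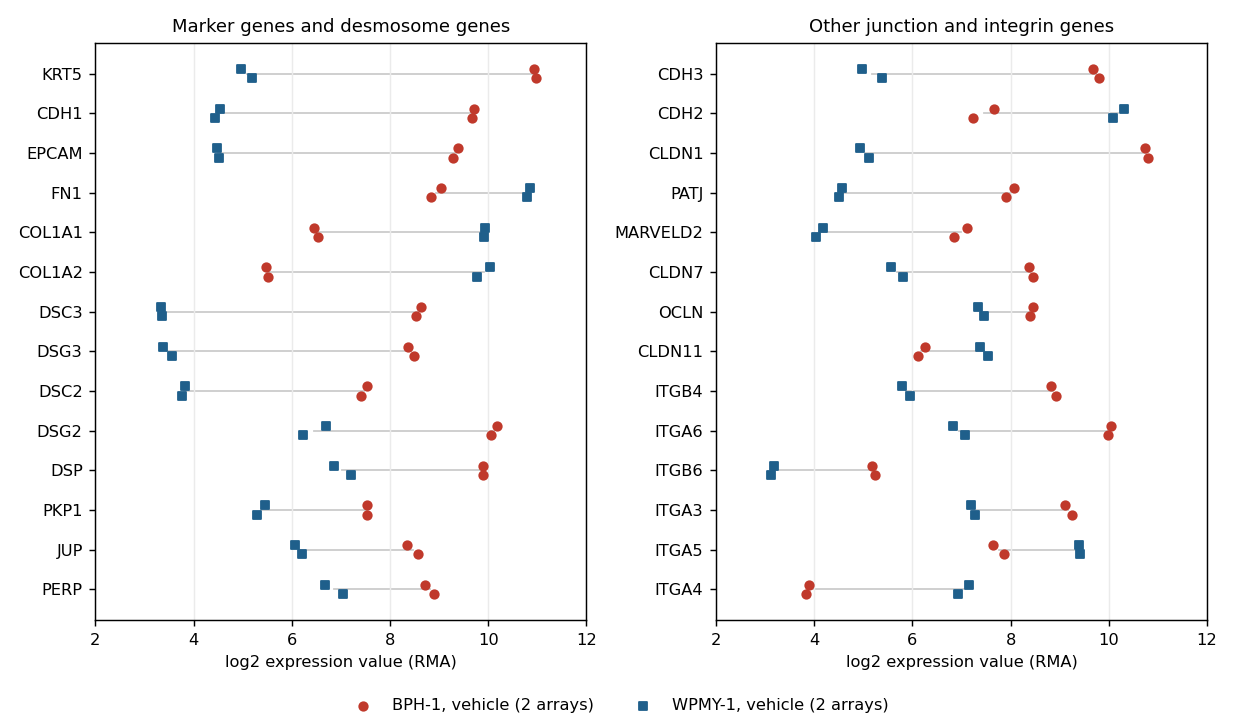
Log2 expression values (x axis) of marker, desmosome, junction and integrin genes (rows) on the 2 vehicle arrays of BPH-1 cells (red circles) and the 2 vehicle arrays of WPMY-1 cells (blue squares), with a grey line between the group means. KRT5, CDH1, EPCAM, the desmosome genes and CLDN1 lay to the right in BPH-1 cells, while COL1A1, COL1A2, FN1, CDH2, CLDN11, ITGA5 and ITGA4 lay to the right in WPMY-1 cells.

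Desmosomes, the spot junctions that anchor keratin filaments, had the highest median difference of the 37 lists. Of 14 genes measured, 10 were higher in BPH-1 cells, 8 of them at least 4-fold, and 0 were lower (median difference 2.23, against 0.02 over all genes). DSC3, a desmosomal cadherin of basal epithelium, read 8.63 and 8.52 in BPH-1 cells, against 3.35 and 3.35 in WPMY-1 cells (37.4-fold). DSG3, its partner in the same junction, read 8.36 and 8.48 in BPH-1 cells, against 3.37 and 3.55 in WPMY-1 cells. The other cadherins, DSC2 and DSG2, were 12.8-fold and 12.6-fold higher. DSG2 read 10.19 and 10.05 in BPH-1 cells, against 6.69 and 6.23 in WPMY-1 cells. The plaque proteins lay on the same side. DSP, desmoplakin, which ties the plaque to keratin, was 7.32-fold higher, the plakophilins PKP2 and PKP1 were 5.01-fold and 4.44-fold higher, and JUP, plakoglobin, was 4.99-fold higher. PERP, a membrane protein of desmosomes, was 3.88-fold higher and PKP3 1.62-fold.

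The promoters of the 4 desmosomal cadherin genes higher in BPH-1 cells are shown because ZEB and SNAI factors bind the E-box CAGGTG, or CACCTG on the other strand, in epithelial promoters. Each runs from 250 bases before to 50 bases after the start of the gene (RefSeq, GRCh38.p14), and capitals mark the E-box.
DSC3 (chr18:31042693-31042992, minus strand): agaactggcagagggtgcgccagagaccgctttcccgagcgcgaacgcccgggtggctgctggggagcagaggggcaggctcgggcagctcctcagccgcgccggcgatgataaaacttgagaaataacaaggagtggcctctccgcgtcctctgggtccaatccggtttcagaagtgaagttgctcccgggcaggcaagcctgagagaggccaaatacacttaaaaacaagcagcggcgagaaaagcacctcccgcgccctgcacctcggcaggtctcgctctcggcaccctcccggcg
DSG3 (chr18:31447491-31447790, plus strand): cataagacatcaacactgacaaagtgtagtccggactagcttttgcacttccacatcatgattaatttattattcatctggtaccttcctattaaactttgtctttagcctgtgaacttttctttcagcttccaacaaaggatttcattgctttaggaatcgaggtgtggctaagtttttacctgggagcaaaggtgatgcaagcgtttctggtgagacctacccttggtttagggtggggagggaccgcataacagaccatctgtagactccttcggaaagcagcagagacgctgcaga
DSC2 (chr18:31102372-31102671, minus strand): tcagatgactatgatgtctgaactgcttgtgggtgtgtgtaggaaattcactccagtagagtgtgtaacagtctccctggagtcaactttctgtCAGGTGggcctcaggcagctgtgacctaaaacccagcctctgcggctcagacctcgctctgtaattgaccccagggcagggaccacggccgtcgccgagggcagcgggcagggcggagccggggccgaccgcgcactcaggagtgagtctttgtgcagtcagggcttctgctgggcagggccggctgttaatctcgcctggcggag
DSG2 (chr18:31497927-31498226, plus strand): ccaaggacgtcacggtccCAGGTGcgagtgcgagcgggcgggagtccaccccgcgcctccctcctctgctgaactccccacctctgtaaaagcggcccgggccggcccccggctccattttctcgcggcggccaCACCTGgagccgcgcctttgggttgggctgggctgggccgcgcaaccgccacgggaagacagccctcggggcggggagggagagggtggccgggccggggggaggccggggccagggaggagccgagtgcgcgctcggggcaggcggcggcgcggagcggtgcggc
DSC2 held 1 E-box, which began 156 bases before the start, and DSG2 held 2, which began 232 and 116 bases before it. DSC3 and DSG3 held none in this window. The E-box stood in 10 of the 22 promoters found for junction genes higher in BPH-1 cells (45.5%), in 3 of 20 found for the other junction genes measured (15.0%) and in 20.6% of all 27305 promoters of the table. CDH1 had no entry. Among the 22, CLDN1, DSC3 and DSG3 had the largest differences and held none, while DSC2, DSG2 and PATJ came next and held it. CRB3 and AFDN, with 5 and 4 E-boxes, differed by only 0.47 and 0.66. A match of letters is a description and not a site, and binding of ZEB or SNAI factors was not tested.

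Classical cadherins split between the lines. Of 23 cadherin, catenin and nectin genes measured, 7 were higher and 3 lower in BPH-1 cells (median difference 0.07). CDH1 and CDH3, P-cadherin of basal epithelium, were 36.5-fold and 23.5-fold higher. CDH2, N-cadherin, the cadherin of mesenchymal and neural cells, read 7.67 and 7.23 in BPH-1 cells, against 10.30 and 10.08 in WPMY-1 cells (6.69-fold lower). CDH11, known as a fibroblast cadherin, went against this order at 6.86 and 6.59 in BPH-1 cells, against 5.80 and 5.47 in WPMY-1 cells, so that it was 2.13-fold higher in the epithelial line. CDH8, described mainly in neurons, was 6.16-fold higher, and NECTIN1, an adhesion molecule of adherens junctions, was 4.66-fold higher.

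Tight junctions seal the space between epithelial cells and separate the upper from the lower membrane. Of 25 tight junction and polarity genes, 16 were higher in BPH-1 cells, 7 of them at least 4-fold, and 1 was lower (median difference 0.58). CLDN1, a barrier claudin, read 10.73 and 10.79 in BPH-1 cells, against 4.94 and 5.12 in WPMY-1 cells (53.2-fold). PATJ, a scaffold of the Crumbs polarity complex, read 8.06 and 7.90 in BPH-1 cells, against 4.56 and 4.51 in WPMY-1 cells. MARVELD2, tricellulin, was 7.38-fold higher, CLDN7 6.62-fold and RAB25, an epithelial trafficking GTPase, 4.96-fold. OCLN, occludin, and TJP1, the scaffold ZO-1, were bright in both lines and differed less, by 1.04 and 0.48 on the log2 scale. CLDN11 was the exception, with 6.25 and 6.12 in BPH-1 cells, against 7.37 and 7.55 in WPMY-1 cells (2.42-fold lower in BPH-1 cells).

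Integrins, the receptors for matrix, were called in both directions. The hemidesmosome chains ITGA6 and ITGB4, which bind basement membrane laminin, were 8.41-fold and 7.94-fold higher in BPH-1 cells. Of 5 hemidesmosome genes measured 2 were higher and 2 lower, and the 2 lower calls fell to 1 without any 1 of the 4 vehicle arrays. Among 18 other integrins 4 were higher and 5 lower. The higher calls did not all hold when any 1 array was left out. ITGB6, an epithelial chain, read 5.17 and 5.25 in BPH-1 cells, against 3.18 and 3.11 in WPMY-1 cells, and ITGA3, a laminin receptor chain, read 9.10 and 9.24 in BPH-1 cells, against 7.20 and 7.27 in WPMY-1 cells. ITGA4 and ITGA5, the chains that pair with ITGB1 to bind fibronectin, were 9.05-fold and 3.12-fold lower in BPH-1 cells. ITGA11 and ITGA1, chains of collagen receptors, were 2.65-fold and 2.20-fold lower, whereas ITGA2, a collagen receptor chain as well, was 2.33-fold higher.

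Keratins, surface proteins and squamous genes were called in 1 direction only. Of 16 keratins measured, 10 were higher in BPH-1 cells and 0 lower. KRT8 and KRT18, the keratin pair of simple and luminal epithelium, were 8.51-fold and 2.70-fold higher, and KRT18 read 10.50 and 10.37 in BPH-1 cells, against 9.05 and 8.95 in WPMY-1 cells, bright in the stromal line too. KRT19 was 6.31-fold higher. KRT14, the usual partner of KRT5, read 5.90 and 6.08 in BPH-1 cells, against 4.79 and 4.82 in WPMY-1 cells, a difference of 1.19 against 5.87 for KRT5. Keratin genes resemble each other in sequence, and shared probes were not checked.

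Of 24 epithelial surface and serine protease genes, 18 were higher in BPH-1 cells and 0 lower (median difference 1.02). ESRP1 and ESRP2, splicing factors of epithelial cells, were 23.7-fold and 4.21-fold higher. CD24, a surface sialoglycoprotein, read 8.90 and 8.56 in BPH-1 cells, against 4.34 and 4.98 in WPMY-1 cells. The protease inhibitors SPINT2 and SPINT1 were 5.28-fold and 3.20-fold higher, and their protease ST14, matriptase, was 2.57-fold higher. Of 25 squamous and secreted defence genes, 14 were higher and 0 lower. SERPINB5, maspin, had the largest rise of any gene under the naming rule, at 9.67 and 9.54 in BPH-1 cells, against 3.25 and 3.29 in WPMY-1 cells (80.6-fold, adjusted p = 2.5e-08). Its neighbours of the clade B serpin cluster, SERPINB3, SERPINB4 and SERPINB13, were 25.0-fold, 16.4-fold and 14.6-fold higher. SERPINB3 read 7.75 and 8.51 in BPH-1 cells, against 3.42 and 3.55 in WPMY-1 cells, with BPH-1 replicate 2 the higher array. SFN, a 14-3-3 protein of stratified epithelium, was 14-fold higher and SLPI, a secreted antiprotease, 12.3-fold.

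**Figure D2:**
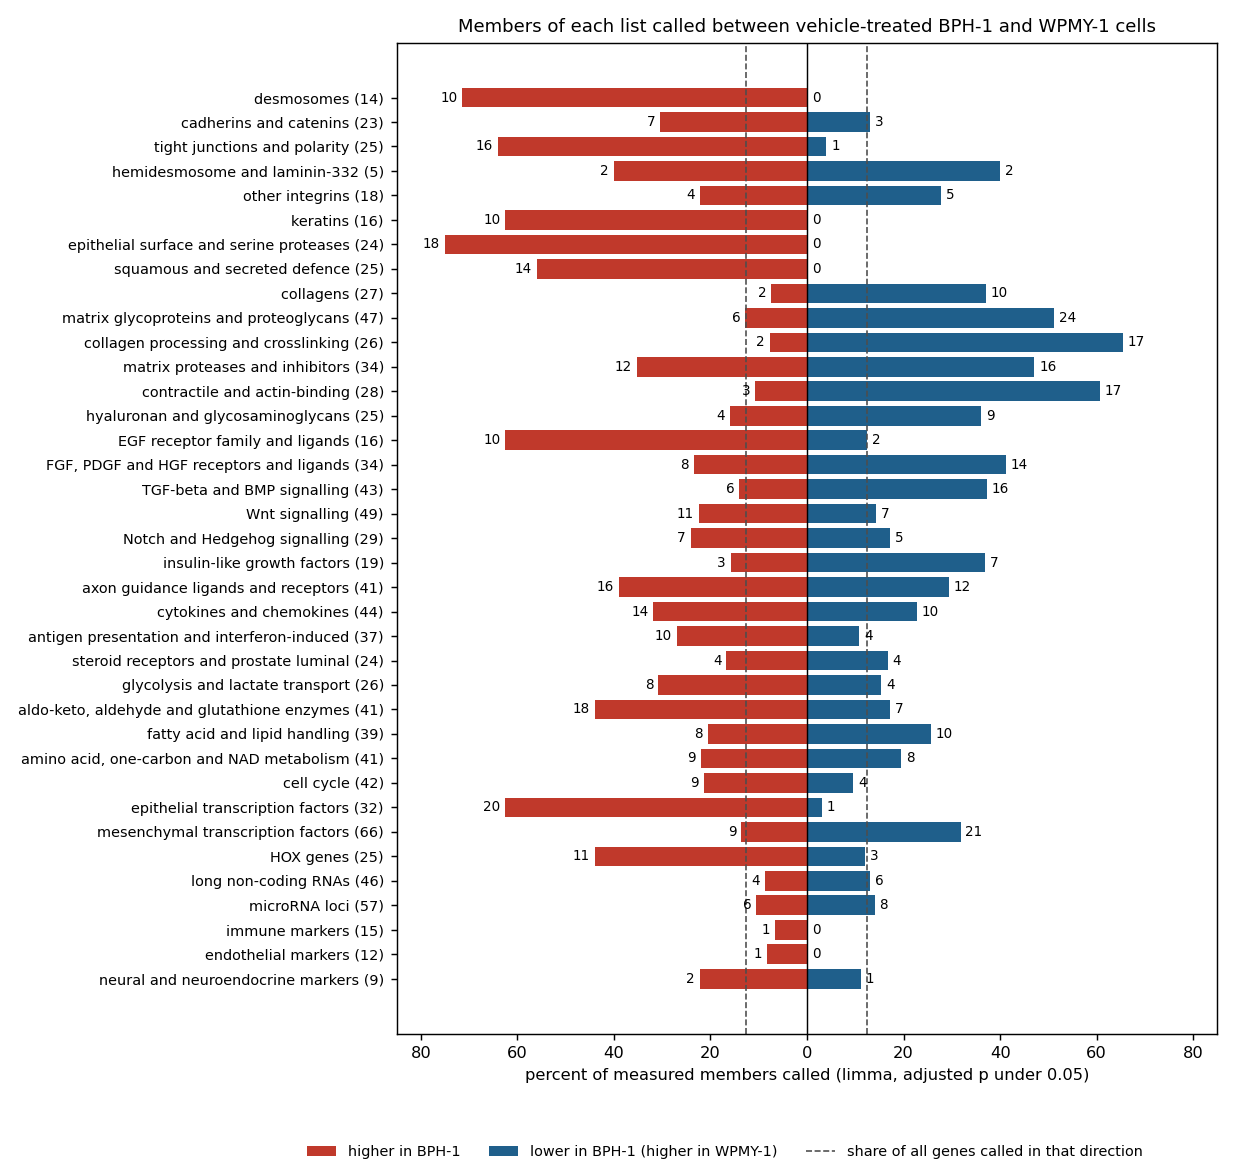
Percent of the measured members of each gene list (x axis) called higher in BPH-1 cells (red, to the left) or lower in BPH-1 cells (blue, to the right) on the vehicle arrays, with the number of genes at each bar end, the number measured in brackets and dashed lines at 12.7% and 12.5%, the shares of all genes called in each direction. Junction, keratin and epithelial surface lists extended to the left, and collagen, collagen processing, matrix and contractile lists to the right.

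More collagens were lower than higher in the epithelial line. Of 27 collagen genes, 10 were lower and 2 higher in BPH-1 cells (median difference -0.11), and the 2 higher calls fell to 0 without BPH-1 replicate 2 and to 1 without BPH-1 replicate 1 or WPMY-1 replicate 1. COL6A3, a chain of the beaded filament collagen VI, read 5.02 and 5.02 in BPH-1 cells, against 9.69 and 9.63 in WPMY-1 cells (24.9-fold lower). COL1A2 was 21.4-fold lower and COL1A1 10.8-fold, and COL5A2, which starts the growth of type I fibrils, was 5.84-fold lower. COL6A1 and COL6A2, the other chains that pair with COL6A3, were lower by less, at 2.14-fold and 1.66-fold. COL12A1 and COL8A1 were 2.87-fold and 3.86-fold lower.

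Matrix glycoproteins and proteoglycans showed the same order in more genes. Of 47 measured, 24 were lower and 6 higher in BPH-1 cells, 8 of the lower ones at least 4-fold (median difference -0.32). POSTN, periostin, a matricellular protein of activated stroma, read 3.05 and 2.88 in BPH-1 cells, against 8.11 and 7.38 in WPMY-1 cells (27.5-fold lower), and WPMY-1 replicate 1 was the higher array. VCAN, the proteoglycan versican, read 4.10 and 4.09 in BPH-1 cells, against 8.33 and 7.90 in WPMY-1 cells. SPARC, osteonectin, was 15.5-fold lower, FBN1, the microfibril protein fibrillin, 13-fold and BGN, biglycan, 5.91-fold. TGFBI and TNC, tenascin, were 5.07-fold and 4.19-fold lower, with BPH-1 means of 9.10 and 8.36. DCN and LUM, small proteoglycans that mark tissue fibroblasts, were lower by 1.39 and 1.85 on the log2 scale, and their means in WPMY-1 cells, 4.74 and 4.27, were low as well. Members that went the other way were NID2, a basement membrane nidogen (2.69-fold higher), EFEMP1, a fibulin (2.59-fold higher), and SDC1, the syndecan of epithelial cells (1.90-fold higher). THBS1, thrombospondin, was 2.16-fold higher, a call that was lost without BPH-1 replicate 1 or WPMY-1 replicate 2.

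Enzymes that fold, trim and crosslink collagen were lower in BPH-1 cells in 17 of 26 genes and higher in 2 (median difference -0.59). LOX, lysyl oxidase, which crosslinks collagen and elastin, read 6.14 and 6.15 in BPH-1 cells, against 10.43 and 10.23 in WPMY-1 cells (18.2-fold lower). LOXL1 and LOXL2, enzymes of the same family, were 5.59-fold and 2.33-fold lower. SERPINH1, the collagen chaperone HSP47, was 2.45-fold lower and P3H1, a prolyl hydroxylase, 2.44-fold. TGM2, tissue transglutaminase, which crosslinks proteins by another reaction, went against the group at 9.43 and 9.20 in BPH-1 cells, against 6.48 and 6.24 in WPMY-1 cells (7.77-fold higher), as did P3H2, the prolyl hydroxylase of basement membrane collagen (2.84-fold higher).

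Matrix proteases were called in both directions. Of 34 proteases and inhibitors, 12 were higher and 16 lower in BPH-1 cells. MMP1, interstitial collagenase, read 10.31 and 10.35 in BPH-1 cells, against 4.48 and 4.87 in WPMY-1 cells (50.3-fold higher). MMP13, collagenase 3, read 7.97 and 7.16 in BPH-1 cells, against 3.51 and 3.56 in WPMY-1 cells. MMP7, matrilysin, a small epithelial metalloprotease, was 7.13-fold higher. On the other side MMP3, stromelysin, read 4.36 and 4.19 in BPH-1 cells, against 8.06 and 7.90 in WPMY-1 cells (13.1-fold lower), and ADAM12 read 6.15 and 6.12 in BPH-1 cells, against 9.70 and 9.87 in WPMY-1 cells. MMP2, gelatinase A, was 9.55-fold lower, HTRA1 5.61-fold and PLAT, the tissue plasminogen activator, 4.36-fold. MMP1 and MMP3, neighbours in the cluster of metalloprotease genes on chromosome 11, thus had opposite signs.

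Contractile and actin-binding genes were lower in BPH-1 cells in 17 of 28 and higher in 3, and the 3 fell to 0 without BPH-1 replicate 2. MYL9, the regulatory light chain of smooth muscle myosin, read 7.35 and 7.63 in BPH-1 cells, against 10.83 and 10.79 in WPMY-1 cells (9.99-fold lower). TPM2, a tropomyosin, was 4.61-fold lower, TAGLN, transgelin, 3.39-fold and CALD1, caldesmon, 3.04-fold. On the RWF arrays MYL9, TPM2, TAGLN and CALD1 differed by -2.19, -1.96, -1.09 and -0.82. None of these changes passed the threshold (test of the change in limma, adjusted p = 0.109 to 0.579). The median difference of the contractile list was -0.42 on the vehicle arrays and -0.099 on the RWF arrays. VIM, vimentin, the filament protein of mesenchymal cells, read 9.45 and 9.37 in BPH-1 cells, against 10.42 and 10.50 in WPMY-1 cells, a difference of -1.05 with high values in both lines. ACTA2, the smooth muscle actin that marks myofibroblasts, read 5.94 and 6.09 in BPH-1 cells, against 6.20 and 6.20 in WPMY-1 cells and did not pass the threshold (difference -0.18, adjusted p = 0.232). Among 25 genes of hyaluronan and glycosaminoglycans 4 were higher and 9 lower. XYLT1, which starts glycosaminoglycan chains, was 7.09-fold lower and HS3ST3A1, a heparan sulfate sulfotransferase, 4.44-fold lower, while SULF2, which removes sulfate from heparan sulfate, was 4.14-fold higher.

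**Figure D3:**
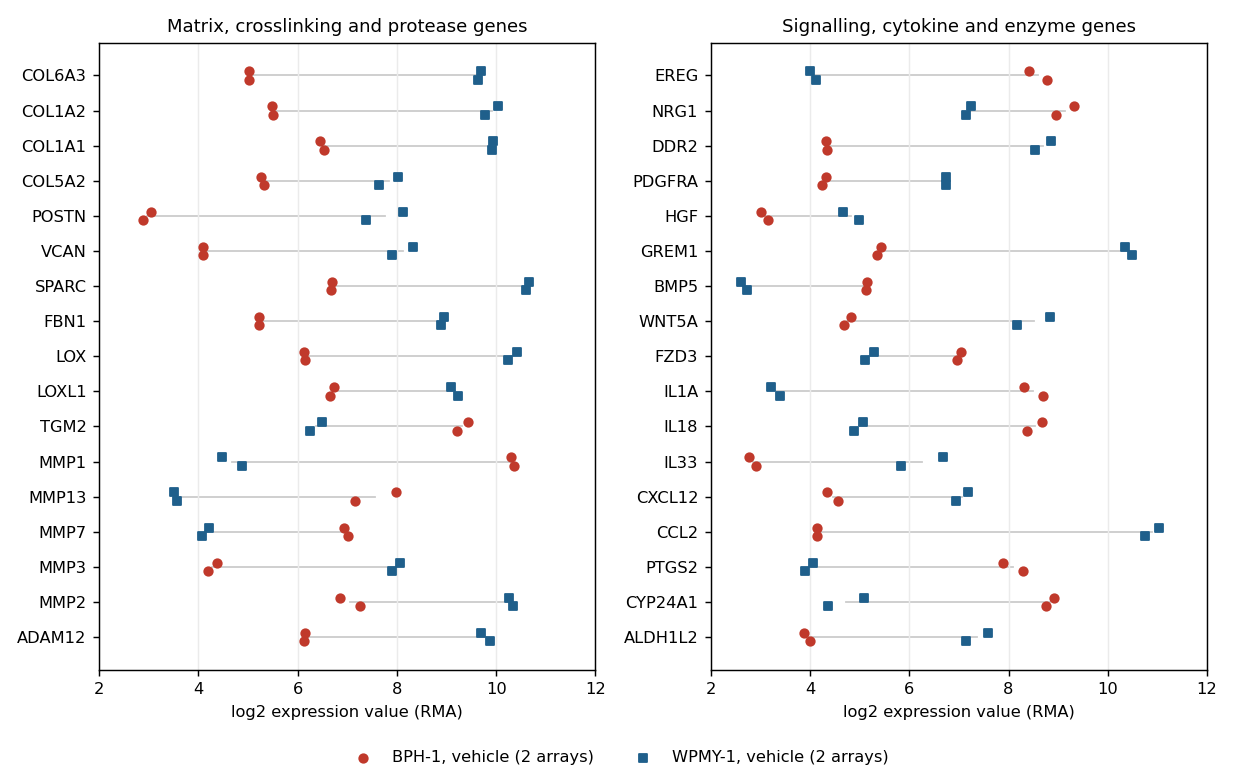
Log2 expression values (x axis) of matrix, crosslinking and protease genes (left) and signalling, cytokine and enzyme genes (right) on the 2 vehicle arrays of BPH-1 cells (red circles) and the 2 vehicle arrays of WPMY-1 cells (blue squares), with a grey line between the group means. The genes drawn were mainly picked for large differences. The groups did not overlap in any of them, as in every called gene, which adds no support. MMP1, MMP13 and MMP7 lay to the right in BPH-1 cells, and MMP3, MMP2, ADAM12, GREM1 and CCL2 lay to the right in WPMY-1 cells.

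Of 16 genes of the EGF receptor family, its ligands and regulators 10 were higher and 2, EGF and LRIG1, lower in BPH-1 cells (median difference 0.52), and the 2 lower calls fell to 1 without BPH-1 replicate 1, BPH-1 replicate 2 or WPMY-1 replicate 1. EREG, epiregulin, read 8.42 and 8.77 in BPH-1 cells, against 4.0 and 4.12 in WPMY-1 cells (23.2-fold higher). NRG1, neuregulin, read 9.32 and 8.96 in BPH-1 cells, against 7.23 and 7.14 in WPMY-1 cells, and TGFA was 3.17-fold higher. The ligand EGF went the other way at low signal, at 2.97 and 3.06 in BPH-1 cells, against 3.46 and 3.28 in WPMY-1 cells (adjusted p = 0.0222). Of the receptors, ERBB3 was 2.18-fold higher, while EGFR was not called (adjusted p = 0.0747), at 9.35 and 9.33 in BPH-1 cells, against 9.01 and 9.12 in WPMY-1 cells. EGFR passed the threshold in 4 of the other settings tried. LRIG1, which restrains these receptors, read 5.88 and 5.86 in BPH-1 cells, against 7.51 and 8.02 in WPMY-1 cells (3.72-fold lower).

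Receptors and ligands of the FGF, PDGF and HGF families were lower in BPH-1 cells in 14 of 34 genes and higher in 8, and the 8 fell to 5 without BPH-1 replicate 2 or WPMY-1 replicate 1. The 34 genes also took in receptors outside these families, such as DDR2. This receptor tyrosine kinase, which binds fibrillar collagen, read 4.32 and 4.35 in BPH-1 cells, against 8.85 and 8.54 in WPMY-1 cells (20.5-fold lower). DDR1, its epithelial relative, read 7.51 and 7.65 in BPH-1 cells, against 6.43 and 6.49 in WPMY-1 cells (2.16-fold higher), so the pair had opposite signs. PDGFRA and PDGFRB, the platelet-derived growth factor receptors of stroma, were 5.51-fold and 2.39-fold lower. HGF, the scatter factor that stroma sends to epithelium, read 3.01 and 3.14 in BPH-1 cells, against 4.67 and 4.98 in WPMY-1 cells, low in both lines. FGF2 was 4.91-fold lower and AXL, a receptor of GAS6, 4.04-fold lower, with GAS6 itself 1.84-fold lower. FGFBP1, a carrier that releases FGFs from matrix, was 7.31-fold higher.

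TGF-beta and BMP genes were lower in BPH-1 cells in 16 of 43 and higher in 6. GREM1, gremlin, a secreted BMP antagonist, read 5.43 and 5.35 in BPH-1 cells, against 10.35 and 10.48 in WPMY-1 cells (32.5-fold lower). TGFB1I1, a focal adhesion protein induced by TGF-beta, was 3.61-fold lower, LTBP1, which stores TGF-beta in matrix, 3.06-fold and INHBA, a subunit of activin, 2.27-fold. BMP5 went the other way at 5.15 and 5.12 in BPH-1 cells, against 2.60 and 2.73 in WPMY-1 cells (5.53-fold higher), as did ID4, an inhibitor of basic helix-loop-helix factors (4.07-fold higher), and TGFBR2, the type II receptor (1.73-fold higher).

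Among 49 Wnt genes 11 were higher and 7 lower in BPH-1 cells, and the 11 fell to 7 without BPH-1 replicate 2. The 11 and 7 were 22.4% and 14.3% of the list, against 12.7% and 12.5% of all genes. Coding genes were called at 14.9% and 14.7%, so the lower share was near that of coding genes. The ligand WNT5A, which signals mainly without beta-catenin, read 4.82 and 4.69 in BPH-1 cells, against 8.84 and 8.18 in WPMY-1 cells (13.5-fold lower), and its receptors ROR1 and ROR2 were 2.26-fold and 1.94-fold lower. The frizzled receptors FZD3 and FZD6 were 3.50-fold and 2.02-fold higher. Of 29 Notch and Hedgehog genes 7 were higher and 5 lower (24.1% and 17.2%). The Notch ligands DLL1 and JAG1 were 2.84-fold and 2.48-fold higher, and the Notch targets NRARP and HES1 3.74-fold and 3.0-fold higher, while the receptor NOTCH2 was 2.28-fold lower. The Hedgehog effectors GLI2 and GLI3 and the antagonist HHIP were 2.17-fold, 1.86-fold and 4.20-fold lower.

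Of 19 genes of the insulin-like growth factor system 3 were higher and 7 lower (15.8% and 36.8%, against 12.7% and 12.5% of all genes). The higher share was near the 14.9% of coding genes. The 7 fell to 4 without BPH-1 replicate 1, and the 3 fell to 1 without BPH-1 replicate 2 or WPMY-1 replicate 1. PAPPA, the protease that frees these factors from their binding proteins, read 5.97 and 6.17 in BPH-1 cells, against 8.72 and 8.81 in WPMY-1 cells, and STC1, stanniocalcin, which inhibits it, read 4.69 and 4.82 in BPH-1 cells, against 9.40 and 9.21 in WPMY-1 cells (23.3-fold lower). Axon guidance genes were called in both directions, 16 higher and 12 lower of 41. NRP1, a co-receptor for semaphorins and VEGF, was 5.47-fold lower, SEMA3D 5.22-fold and SLIT2 3.76-fold, while the netrin NTN4 was 4.40-fold higher and the ephrin EFNA1 3.21-fold higher.

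Cytokines and chemokines were called in both directions. Of 44 genes 14 were higher and 10 lower in BPH-1 cells. CCL2, which draws monocytes, had the largest fall under the naming rule, at 4.13 and 4.13 in BPH-1 cells, against 11.03 and 10.74 in WPMY-1 cells (108.2-fold lower, adjusted p = 2.5e-08). CXCL12, the ligand of CXCR4 and a product of stroma, read 4.35 and 4.57 in BPH-1 cells, against 7.18 and 6.94 in WPMY-1 cells, and IL33, a nuclear alarmin, read 2.77 and 2.91 in BPH-1 cells, against 6.68 and 5.84 in WPMY-1 cells. The interleukin-1 family sorted by member. IL1A read 8.31 and 8.69 in BPH-1 cells, against 3.21 and 3.40 in WPMY-1 cells (36.6-fold higher), IL18 was 11.7-fold higher and the decoy receptor IL1R2 2.11-fold higher. IL6 and CXCL8 were 2.23-fold and 2.31-fold lower in BPH-1 cells, and CCL20 was 4.05-fold higher.

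Interferon-induced and antigen presentation genes were higher in BPH-1 cells in 10 of 37 and lower in 4. IFI44 read 6.63 and 6.23 in BPH-1 cells, against 3.97 and 4.25 in WPMY-1 cells (4.98-fold higher), and OAS2, a sensor enzyme of double-stranded RNA, was 3.20-fold higher. GBP1, a GTPase that interferon gamma induces, was 2.55-fold lower on the vehicle arrays and differed by 0.23 on the RWF arrays, where it was not called (test of that change in limma, adjusted p = 0.145). The 4 lower calls fell to 1 without BPH-1 replicate 1 and to 2 without WPMY-1 replicate 2 or any 1 of the 4 RWF arrays. Of 24 steroid receptor and prostate luminal genes 4 were higher and 4 lower, and the 4 lower fell to 2 without either BPH-1 vehicle array. Each of these 2 counts was 16.7% of the list. This was not far from the 12.7% and 12.5% of all genes or the 14.9% and 14.7% of coding genes. Differences over the list ran from -0.72 to 2.16 with a median of 0.03, so the list as a whole leaned to neither line. HSD17B2, which inactivates sex steroids, was 4.46-fold higher, and FOXA1, the pioneer factor of luminal cells, 3.46-fold higher. KLK3, the gene of prostate-specific antigen, read 5.38 and 5.27 in BPH-1 cells, against 5.24 and 5.36 in WPMY-1 cells and was not called.

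Metabolic genes were called in both directions. Of 26 genes of glycolysis and lactate transport 8 were higher and 4 lower, and the 8 fell to 5 without BPH-1 replicate 2 or WPMY-1 replicate 1. PFKFB3, which makes the activator of phosphofructokinase, was 3.22-fold higher and HK2, hexokinase 2, 1.96-fold higher. The glucose transporter SLC2A3 read 4.71 and 4.70 in BPH-1 cells, against 7.26 and 7.53 in WPMY-1 cells (6.47-fold lower). Of 41 aldo-keto reductase, aldehyde dehydrogenase, glutathione and cytochrome genes 18 were higher and 7 lower (median difference 0.26). CYP24A1, which degrades vitamin D, read 8.91 and 8.75 in BPH-1 cells, against 5.09 and 4.36 in WPMY-1 cells (17.2-fold higher). GPX2, the glutathione peroxidase of epithelia, was 7.65-fold higher, whereas ALDH1L2, the mitochondrial enzyme of folate metabolism, was 10.8-fold lower and GSTM3 4.38-fold lower.

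Of 39 lipid genes 8 were higher and 10 lower. PTGS2, cyclooxygenase 2, read 7.89 and 8.29 in BPH-1 cells, against 4.07 and 3.90 in WPMY-1 cells (17.2-fold higher), PTGS1 was 3.40-fold higher and PTGES, which makes prostaglandin E2, 3.58-fold higher. PTGIS, prostacyclin synthase, was not called (adjusted p = 0.993). PLIN2, the coat protein of lipid droplets, was 4.07-fold lower and ELOVL2, an elongase of polyunsaturated fatty acids, 3.88-fold lower. Of 41 amino acid and NAD genes 9 were higher and 8 lower, and the 8 fell to 5 without WPMY-1 replicate 2. SLC6A15, a transporter of branched amino acids, read 3.27 and 3.36 in BPH-1 cells, against 7.40 and 7.21 in WPMY-1 cells (15.8-fold lower), and NNMT, which methylates nicotinamide, was 3.10-fold lower. KYNU, kynureninase, and SLC7A5, the carrier of large neutral amino acids, were 3.97-fold and 3.12-fold higher. The cell cycle list held 9 higher and 4 lower genes of 42 (21.4% and 9.52%, against 12.7% and 12.5% of all genes). For coding genes these shares were 14.9% and 14.7%. CCND2, cyclin D2, was 6.40-fold higher, CCND1 2.04-fold and the helicase subunit MCM6 2.04-fold. The 4 lower cell cycle calls fell to 1 without BPH-1 replicate 1, BPH-1 replicate 2 or WPMY-1 replicate 2 and to 2 without WPMY-1 replicate 1.

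Epithelial transcription factors were higher in BPH-1 cells in 20 of 32 genes and lower in 1 (median difference 0.48). EHF, an ETS factor of glandular epithelium, read 8.06 and 8.21 in BPH-1 cells, against 4.34 and 4.31 in WPMY-1 cells (14-fold higher). GRHL2, which activates CDH1 and claudin genes, read 7.90 and 7.74 in BPH-1 cells, against 4.26 and 4.31 in WPMY-1 cells (11.6-fold higher). KLF5 was 5.87-fold higher, TRIM29, a cofactor found in basal cells, 8.20-fold, SOX2 and SOX15 3.45-fold and 3.44-fold, and TFAP2C 3.38-fold. CREB3L1 was the exception. It is a membrane-bound factor that activates collagen genes in bone, and it read 5.37 and 5.69 in BPH-1 cells, against 8.51 and 8.68 in WPMY-1 cells (8.38-fold lower).

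Mesenchymal transcription factors were lower in BPH-1 cells in 21 of 66 genes and higher in 9 (median difference -0.03). PRRX1, a homeobox factor of limb and fibroblast lineages, read 4.17 and 4.24 in BPH-1 cells, against 6.70 and 6.39 in WPMY-1 cells (5.09-fold lower), and TCF4 read 4.88 and 4.86 in BPH-1 cells, against 7.34 and 6.98 in WPMY-1 cells. The nuclear factor NFIX was 3.69-fold lower, TBX3 3.45-fold and GATA6 2.84-fold. Of the repressors of CDH1, ZEB1 read 6.50 and 6.50 in BPH-1 cells, against 7.61 and 7.43 in WPMY-1 cells (2.02-fold lower), TWIST2 was 2.69-fold lower and TWIST1 1.79-fold. SNAI2 was 1.46-fold lower, a call that was lost without BPH-1 replicate 2 or WPMY-1 replicate 1. FOXF2, a forkhead factor of gut and prostate stroma, went against the list at 6.68 and 6.54 in BPH-1 cells, against 4.46 and 4.35 in WPMY-1 cells (4.61-fold higher), and SOX9, a factor of cartilage and of prostate epithelium alike, was 4.34-fold higher.

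HOX genes, which keep the record of a cell's position along the body axis, were called in both directions. Of 25 measured 11 were higher and 3 lower, and the 11 fell to 6 without BPH-1 replicate 2 and to 7 without WPMY-1 replicate 1. HOXD10 read 7.29 and 7.07 in BPH-1 cells, against 4.55 and 4.89 in WPMY-1 cells (5.49-fold higher) and its neighbour HOXD11 was 2.42-fold higher. In the B cluster HOXB9, HOXB7 and HOXB13, the last being a factor of prostate epithelium, were 1.91-fold, 1.77-fold and 1.45-fold higher and HOXB2 1.55-fold lower. In the C cluster HOXC6 and HOXC8 were 2.18-fold and 1.86-fold lower.

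Genes outside the lists were among the largest differences. NETO2, an auxiliary subunit of kainate receptors, read 10.11 and 9.83 in BPH-1 cells, against 3.82 and 3.62 in WPMY-1 cells (76.2-fold higher), and FAM83B, a scaffold of EGF receptor signalling, read 9.12 and 8.88 in BPH-1 cells, against 3.15 and 3.43 in WPMY-1 cells. MPZL2, an adhesion molecule of epithelia, was 48.0-fold higher. OLR1, the receptor of oxidized LDL, INA, a neuronal intermediate filament, and PPP4R4, a phosphatase subunit, were 27.7-fold, 28.5-fold and 26.4-fold higher. Among falls, PLCB4, a phospholipase C, read 3.44 and 3.37 in BPH-1 cells, against 9.36 and 8.55 in WPMY-1 cells, with WPMY-1 replicate 1 above replicate 2. RGS4, which shortens G protein signals, was 27.2-fold lower, CCDC80, a matrix protein, 26.5-fold and TDRD1, a germline protein of the piRNA pathway, 25.3-fold. CACNA2D1, a calcium channel subunit, was 23.9-fold lower, and FAP, the fibroblast activation protease, read 3.0 and 3.22 in BPH-1 cells, against 7.43 and 7.09 in WPMY-1 cells (17.7-fold lower). LRRC17, ABI3BP and CPED1 were lower by 4.42, 4.11 and 3.98 on the log2 scale.

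Among the long non-coding RNAs ranked, UCA1 had the largest positive difference and MIR99AHG the largest negative one. The ranking took LINC, antisense and host gene names and a few others, not every long non-coding RNA. Of 1840 long non-coding RNA genes 120 (6.52%) were higher and 91 (4.95%) lower in BPH-1 cells, against 2538 (14.9%) and 2517 (14.7%) of 17082 coding genes. UCA1, a long non-coding RNA of urothelial and other carcinomas, read 9.38 and 9.26 in BPH-1 cells, against 4.72 and 4.69 in WPMY-1 cells (24.5-fold higher), and CCAT1 read 7.05 and 7.01 in BPH-1 cells, against 3.42 and 2.94 in WPMY-1 cells. MIR99AHG, the host transcript of miR-99a and let-7c, read 3.30 and 3.54 in BPH-1 cells, against 6.80 and 6.46 in WPMY-1 cells (9.25-fold lower). KCNQ1OT1, the imprinted antisense transcript on chromosome 11, was 4.11-fold lower, and HYMAI, an imprinted transcript on chromosome 6, 3.26-fold lower. LINC01551, ZFHX4-AS1 and MAGI2-AS3 were lower by 2.53, 2.0 and 2.21 on the log2 scale. Higher in BPH-1 cells were LINC01002, LINC00960 and PARD6G-AS1, by 1.85, 1.59 and 1.55. LINC02210, LINC00601 and PTPRG-AS1 were higher by 1.49, 1.33 and 1.29, and ZNF225-AS1 was lower by 1.57. Of the 46 long non-coding RNAs on the list 4 were higher and 6 lower.

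The array reads microRNA loci through their precursors or hairpins, and a mature microRNA was not measured as such. Of 1040 microRNA genes 42 (4.04%) were higher and 52 (5.00%) lower in BPH-1 cells. Of the 57 on the list 6 were higher and 8 lower, and the 8 fell to 4 without BPH-1 replicate 2 and to 5 without either BPH-1 RWF array. The mature sequences of 8 of these 14 members, 4 higher and 4 lower, were chosen as those described below and are given from RefSeq (GRCh38.p14), with the seed, bases 2 to 8, in capitals.
miR-200c-3p (MIR200C, chromosome 12): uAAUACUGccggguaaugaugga
miR-141-3p (MIR141, chromosome 12): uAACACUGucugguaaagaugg
miR-181b-5p (MIR181B1, chromosome 1): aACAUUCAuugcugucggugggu
miR-146a-5p (MIR146A, chromosome 5): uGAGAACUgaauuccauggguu
let-7i-5p (MIRLET7I, chromosome 12): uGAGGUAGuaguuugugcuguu
miR-199a-5p (MIR199A1, chromosome 19): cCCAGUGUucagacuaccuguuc
miR-221-3p (MIR221, chromosome X): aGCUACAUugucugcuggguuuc
miR-222-3p (MIR222, chromosome X): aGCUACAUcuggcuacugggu
MIR200C and MIR141 lie side by side on chromosome 12 and belong to the family that targets ZEB1. MIR141 read 3.42 and 3.41 in BPH-1 cells, against 2.66 and 2.44 in WPMY-1 cells and MIR200C read 4.25 and 4.36 in BPH-1 cells, against 3.87 and 3.75 in WPMY-1 cells, so both were higher in BPH-1 cells, by 0.87 and 0.49, at low signal. MIR181B1 read 5.73 and 5.74 in BPH-1 cells, against 3.64 and 3.33 in WPMY-1 cells (4.77-fold higher), and its host transcript MIR181A1HG was 2.05-fold higher. MIR944 was 3.75-fold higher and MIR146A, a brake on NF-kB signalling, 2.09-fold. MIRLET7I, of the let-7 family, read 5.73 and 5.65 in BPH-1 cells, against 7.35 and 6.99 in WPMY-1 cells (2.80-fold lower), and MIR199A1, of a family known from fibroblasts, was 1.97-fold lower. MIR222 and MIR221 share the seed GCUACAU and were 2.15-fold and 1.76-fold lower. The MIR222 call was lost without BPH-1 replicate 2, and the MIR221 call without BPH-1 replicate 2, WPMY-1 replicate 1 or either BPH-1 RWF array.

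MicroRNA loci outside the list held further differences. Higher in BPH-1 cells were MIR622 (3.32-fold), MIR3142 (2.93-fold) and MIR1299 (2.91-fold). MIR622 read 10.07 and 9.85 in BPH-1 cells, against 8.35 and 8.11 in WPMY-1 cells. MIR3942 and MIR4427 were 2.04-fold and 1.94-fold higher, the first of them not called without BPH-1 replicate 1. MIR4439, MIR3152, MIR4675 and MIR635 were lower in BPH-1 cells, by 1.45, 1.24, 1.12 and 1.03 on the log2 scale. Signal was low in MIR4439 and MIR3152, with means of 2.01 and 1.90 in BPH-1 cells, against 3.46 and 3.14 in WPMY-1 cells. MIR4427 was low too, with means of 2.80 and 1.85. On the RWF arrays MIR4439, MIR3152 and MIR4427 differed by -0.77, -0.37 and 0.53 and were not called. Nor was MIR1284 called there (difference -0.04). MIR329-1 and MIR1284 were lower by 1.12 and 1.09, and the call of MIR329-1 was lost without any 1 of the 4 vehicle arrays, that of MIR1284 without BPH-1 replicate 2 or WPMY-1 replicate 1.

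Small nucleolar RNAs of 1 imprinted region stood out from the rest, a group that was singled out after its values were seen. The region on chromosome 14 between DLK1 and DIO3 carries, on the maternal chromosome, MEG3, 2 clusters of box C/D RNAs named SNORD113 and SNORD114, and many microRNAs. Of 40 SNORD113 and SNORD114 copies measured, 35 were lower in BPH-1 cells, 11 of them at least 4-fold, and 0 were higher. Of all 239 snoRNA genes, these copies included, 55 were lower (23.0%) and 7 higher (2.93%). Outside the SNORD113 to SNORD116 families 20 of 149 snoRNA genes were lower and 7 higher, with a median difference of -0.13. The 40 copies had a median difference of -1.71, and their single values ran between -4.01 and -0.27. SNORD114-20 read 4.30 and 3.94 in BPH-1 cells, against 8.53 and 7.74 in WPMY-1 cells (16.1-fold lower). SNORD114-1 read 5.11 and 5.18 in BPH-1 cells, against 7.43 and 7.06 in WPMY-1 cells, and SNORD113-4 read 5.02 and 4.83 in BPH-1 cells, against 7.24 and 6.55 in WPMY-1 cells. WPMY-1 replicate 1 was above WPMY-1 replicate 2 in 39 of the 40, and 21 of the 35 calls held without each of the 8 arrays in turn. On the RWF arrays the median difference was -1.54. MEG3 read 6.22 and 6.22 in BPH-1 cells, against 8.40 and 7.78 in WPMY-1 cells (3.64-fold lower). Of 52 microRNA loci between MEG3 and MEG9, 13 were lower and 0 higher (median difference -0.19). MEG9, a long non-coding RNA of the region, was not called, at 5.04 and 5.07 in BPH-1 cells, against 5.10 and 5.03 in WPMY-1 cells. The coding genes of the region were not called either: DLK1 read 5.48 and 5.52 in BPH-1 cells, against 5.43 and 5.45 in WPMY-1 cells, and DIO3 read 3.96 and 4.0 in BPH-1 cells, against 3.77 and 3.79 in WPMY-1 cells. The comparable copies of the Prader-Willi region on chromosome 15 were not called, with 0 of 31 SNORD115 and 0 of 19 SNORD116 copies past the threshold and median differences of -0.05 and 0.07. All SNORD115 copies but 1 read close to the bottom of the scale in both lines, where a difference could not be seen. Copies within a family resemble each other in sequence, so they are not 40 separate observations, and shared probes were not checked.

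**Figure D4:**
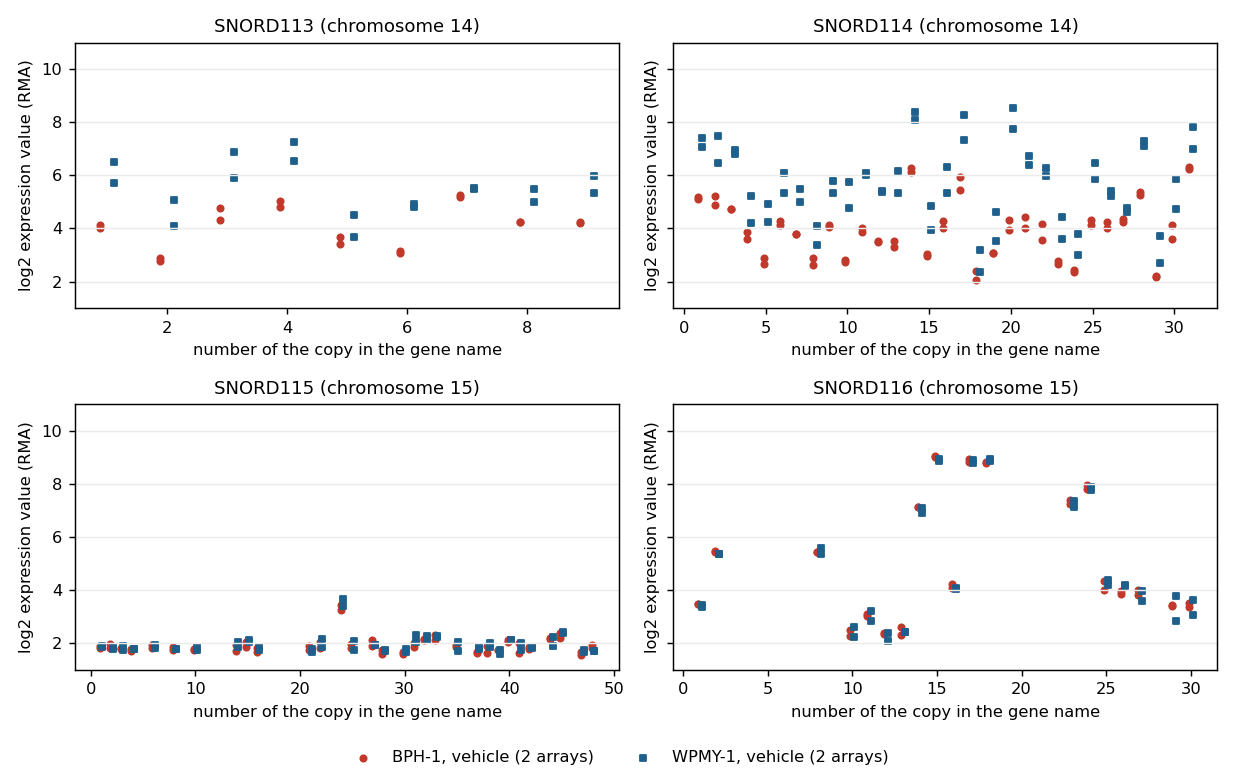
Log2 expression values (y axis) of the SNORD113, SNORD114, SNORD115 and SNORD116 copies (x axis, by number) on the 2 vehicle arrays of BPH-1 cells (red circles) and the 2 vehicle arrays of WPMY-1 cells (blue squares). WPMY-1 cells lay above BPH-1 cells in nearly all SNORD113 and SNORD114 copies, while no SNORD115 or SNORD116 copy was called.

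Differences were also laid out by chromosome, a view that was added after values were seen. It used the 12267 coding genes with a mean of 5 or more over the 8 arrays, placed by RefSeq order. Of these, 2157 (17.6%) were higher and 2245 (18.3%) lower in BPH-1 cells. Chromosome 14 stood apart. Of its 406 genes 230 were higher (56.7%) and 31 lower, and the median difference was 0.42, or 0.40 to 0.44 over the 4 pairs of a BPH-1 and a WPMY-1 array. On the RWF arrays it was 0.46. The medians of the other chromosomes lay between -0.17 (chromosome 4) and 0.17 (chromosome 13). Genes on chromosome 14 with large differences included PPP4R4, PLEK2 (8.22-fold higher), PRKCH, a protein kinase C (7.46-fold), GPX2, PYGL, liver glycogen phosphorylase (3.78-fold), STON2 (4.24-fold) and FOXA1, beside the lower MEG3 and SNORD114 copies of the same chromosome.

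When each chromosome was divided into runs of 50 to 63 neighbouring genes, 187 of 233 runs had a median within 0.2 of 0. Of the 6 runs above 0.4, 5 were on chromosome 14, from DCAF11 to ATXN3, with medians of 0.43 to 0.71. The sixth ran from DSCAML1 to ZNF202 on chromosome 11 and had the highest median of all, 0.80, with 44 of its 50 genes higher in mean and 37 called higher. It held MPZL2, its neighbour MPZL3 (8.86-fold), SORL1, a sorting receptor (11.4-fold), TRIM29 and NECTIN1, so genes listed above as epithelial lay in it. On the RWF arrays its median was 0.82. The run on chromosome 11 from PTPN5 to EXT2 had the lowest median, -0.47, with 33 of 51 genes called lower, among them BDNF, a neurotrophin (4.26-fold lower), and NAV2 (4.06-fold lower). The next lowest, -0.40, lay on chromosome 19 from C19orf84 to RPS9, where 28 of 52 were called lower. Its largest falls were zinc finger genes, ZNF880, ZNF350 and ZNF347, which were 4.16-fold, 2.96-fold and 2.81-fold lower. Runs at the start of chromosome 9 (WASHC1 to ACO1) and of chromosome 10 (ZMYND11 to PTER) had medians of -0.39 and -0.37. Neighbouring genes are not independent of each other.

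**Figure D5:**
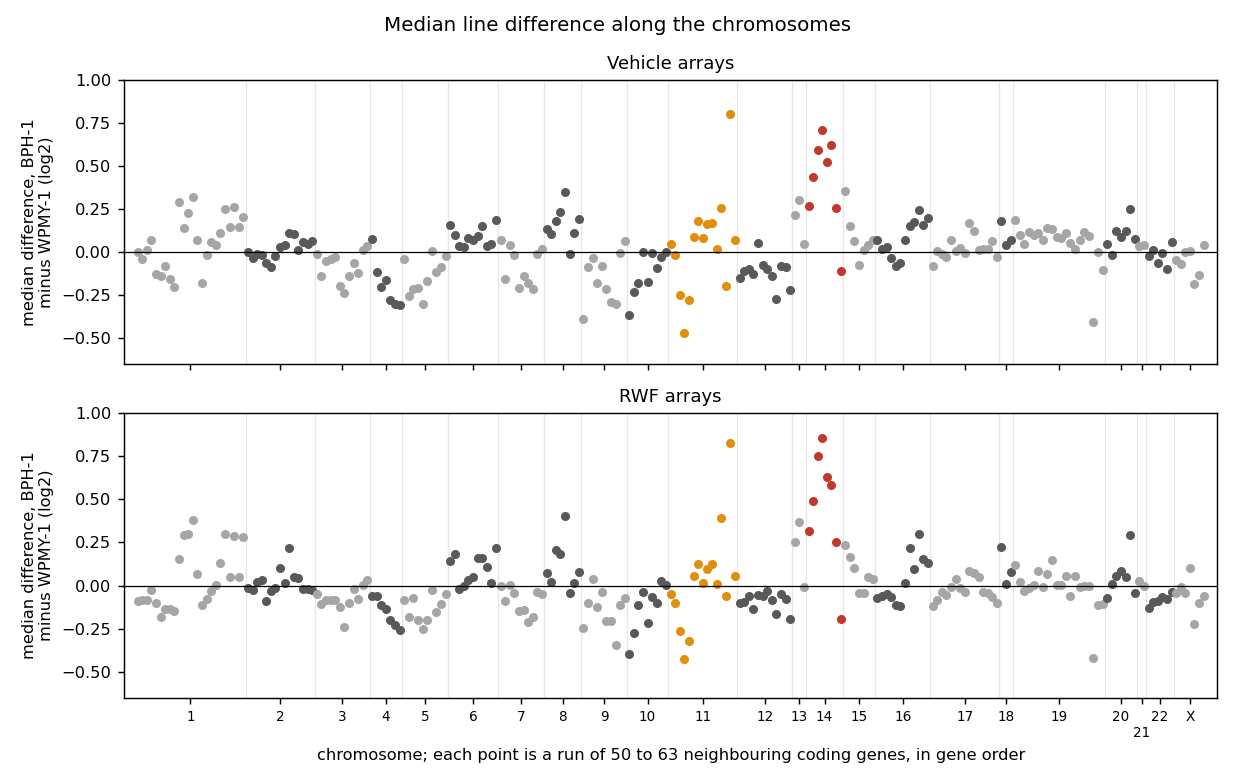
Median log2 difference, BPH-1 minus WPMY-1 (y axis), of runs of 50 to 63 neighbouring coding genes in chromosome order (x axis), on the vehicle arrays (upper panel) and the RWF arrays (lower panel), with chromosome 14 in red and chromosome 11 in orange. The runs of chromosome 14 reached 0.71 and 1 run of chromosome 11 reached 0.80 on the vehicle arrays, and they stood out in the same places on the RWF arrays.

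The 4 RWF arrays, which the vehicle values do not use, gave the line difference again. The 2 contrasts share no array, but they share the fit's estimate of the spread. On these arrays 2842 genes (12.7%) were higher and 2814 (12.5%) lower in BPH-1 cells. Of the 5659 genes called on the vehicle arrays, 5560 (98.3%) had the same sign, and 4384 were called in the same direction. Among genes not called on the vehicle arrays 61.3% had the same sign. All 336 genes with a difference of at least 4-fold kept their sign, 258 of them at 4-fold or more, and the smallest difference among the 336 was 0.72 in the direction of the vehicle arrays. SERPINB5 differed by 6.14 on the RWF arrays, CCL2 by -5.86, CDH1 by 5.25 and COL1A2 by -3.77. CXADR, a junction receptor, differed by 2.51 on the vehicle arrays and by 1.01 on the RWF arrays (test of that change in limma, adjusted p = 0.0455). TPM1, a tropomyosin, was lower in BPH-1 cells under vehicle, by 0.96, and differed by 0.49 on the RWF arrays (test of that change in limma, adjusted p = 0.109). The median of the contractile and actin-binding list shrank from -0.42 under vehicle to -0.099 on the RWF arrays.

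Markers of other cell types were mostly not called between the lines. Of 15 immune genes 1 was called higher, CD14, and 0 lower, with means of 2.03 to 7.94 in BPH-1 cells and 2.05 to 7.99 in WPMY-1 cells. PTPRC, the leukocyte antigen CD45, read 2.42 and 2.41 in BPH-1 cells, against 2.44 and 2.43 in WPMY-1 cells. CD68, a lysosomal protein of macrophages that other cells make as well, read 7.84 and 8.04 in BPH-1 cells, against 7.85 and 8.13 in WPMY-1 cells. Of 12 endothelial genes 1 was called higher, CLDN5, and 0 lower, with means of 2.22 to 6.63 in BPH-1 cells and 2.29 to 6.49 in WPMY-1 cells. PECAM1, the endothelial antigen CD31, read 3.16 and 2.89 in BPH-1 cells, against 3.10 and 3.01 in WPMY-1 cells. Since levels of different probes cannot be set against each other, these values do not say which of the markers were present. Of 9 neural and neuroendocrine genes 2 were called higher and 1 lower, with means of 4.0 to 5.80 in BPH-1 cells and 4.40 to 5.61 in WPMY-1 cells. The immune call was lost without BPH-1 replicate 2 or either WPMY-1 vehicle array, and the endothelial call without any 1 of the arrays except WPMY-1 vehicle replicate 2. The 2 higher neural calls fell to 1 without BPH-1 replicate 2 or WPMY-1 replicate 1, and the lower one to 0 without either BPH-1 vehicle array or WPMY-1 replicate 2.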

How the data were processed

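Of the study, 8 RNA samples were hybridized to Affymetrix Human Transcriptome Arrays 2.0, and the 4 vehicle arrays were compared here. The deposited file holds a log2 value for each of the transcript clusters on each array. RMA, which the submitters' notes name without a version, subtracts background, equalizes the distributions of the arrays and combines probes into clusters, so that a shift of all genes one way would be partly removed. Values were used as deposited, and the number of arrays limits their precision. Names came from the platform annotation, in which 23781 clusters had 1 symbol, 1543 several and 42204 none, and a gene was read at the brightest of its single-symbol clusters. RefSeq held 22167 of the 22465 genes and changed 0 symbols. 2366 clusters hold the same 8 values as another. Some genes are not reported here.

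All 8 arrays were fitted as 4 groups with limma 3.58.1 in R 4.3.3 (residual degrees of freedom 4, prior 4.34). Adjusted p-values are Benjamini-Hochberg values computed across all 67528 clusters, with 0.05 as threshold. The step was tested on simulated data. Clusters had a median SD of 0.0683 between BPH-1 vehicle arrays and of 0.0829 between WPMY-1 vehicle arrays. The members and the 37 gene lists, of which 1120 of 1274 genes were measured, were chosen with earlier results of these data known, and a list is described by counts and medians with no test. Genes are named by rule: the 20 largest differences each way with non-overlapping arrays (genes with the values of another left out), the 6 markers, members of the lists, called or not, mainly the largest differences each way and those against the others, and the 8 largest long non-coding and microRNA genes each way. Long non-coding genes were ranked among LINC, antisense and host gene names, with UCA1, MEG3, KCNQ1OT1, CCAT1 and HYMAI added by name. Chromosome runs, SNORD copies and genes named with them were chosen after their values were seen. Promoters and microRNAs came from RefSeq (GRCh38.p14), and all 57 microRNA members had a mature sequence. Alternatives were quantile normalization, median centring, no dim clusters (33764 kept, mean of 4.57 or more), a replicate block, trend and robust variances, vehicle arrays alone, the methods' t-test, 1 cluster or the mean cluster per gene, and each array left out. Figures used matplotlib 3.10.9.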

Additional observations from a re-analysis of the deposited data

Results flagged for a closer look

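The line difference of CXADR, the coxsackievirus and adenovirus receptor of tight junctions, was itself different between the treatments. It was 2.51 on the vehicle arrays and 1.01 on the RWF arrays (BPH-1 minus WPMY-1, log2 scale). The change of 1.50, the vehicle minus the RWF value, passed the threshold as an interaction in limma (adjusted p = 0.0455). BPH-1 cells were above WPMY-1 cells on all arrays of both treatments. Among all 22465 genes, 2 passed this test, and 1809 had an unadjusted p under 0.05.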

How the results depend on the processing

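The total counts of genes and clusters called held within 1.5 times under quantile normalization, median centring, dim clusters left out, trend and robust variances, vehicle arrays alone, 1 cluster per gene and the mean of a gene's clusters. After Benjamini-Hochberg the methods' t-test on 4 arrays called 3 clusters higher and 3 lower, and 2 genes higher and 1 lower, all of which were at least 4-fold (2 and 1). At an unadjusted p under 0.05 it called 3006 genes higher and 2774 lower. With 1 array left out, clusters higher in BPH-1 numbered 4001 to 5667 and lower 3177 to 5081, genes higher 1948 to 2678 and lower 1795 to 2672, and genes at least 4-fold higher 169 to 177 and lower 154 to 187. The lowest counts of clusters and genes lower in BPH-1, 3177 and 1795, came without BPH-1 vehicle replicate 2. Median centring gave 2456 genes higher and 3286 lower. Replicate numbers are shared by the groups, and no label says what a shared number marks. Deviations of same-numbered arrays correlated at 0.27 between the 2 vehicle groups and at -0.10 to 0.12 between the other pairs of groups, so pairing was not established. A replicate block gave 2879 genes higher and 2851 lower and changed the call of 0 named genes. Of 37 list medians 22 were above 0, and 18 to 24 under the alternatives. Over 38 lists, the markers included, 18 medians moved beyond their replicate spread without dim clusters (by up to 0.373), 13 under median centring (up to 0.05) and 4 under quantile normalization (up to 0.071). Of the 76 counts of list members, 2 for each list, 70 changed by over 1.5 times under the t-test after Benjamini-Hochberg and 10 at its unadjusted p, 5 without dim clusters and 5 with vehicle arrays alone, 3 at 1 cluster per gene and 3 at the mean cluster, 2 under median centring and 1 under quantile normalization. Vehicle arrays alone left 1 lower EGF receptor family gene, 2 lower interferon and antigen genes, 5 lower microRNA loci and 0 immune and 0 endothelial calls. Without dim clusters 2 higher and 5 lower microRNA loci, 1 lower EGF receptor family gene, 8 lower cell cycle genes and 0 lower neural genes were called. At 1 cluster per gene and at the mean cluster 5 insulin-like growth factor genes and 7 steroid receptor and luminal genes were higher and 9 cell cycle genes lower. Median centring called 9 cell cycle genes lower and, like quantile normalization, 0 endothelial genes. Of 274 named genes called, 261 were called without each array in turn. EGFR passed the threshold after quantile normalization, without dim clusters, at 1 cluster per gene and at the mean of its clusters (adjusted p = 0.0313 to 0.0470), but had an adjusted p of 0.0747 as reported and up to 0.267 in the other settings. The median of chromosome 14 was 0.26 with no level minimum and 0.39 after quantile normalization, both added after seeing the data. With no detection call, low values limit what can be said of dim genes.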
